A study of Mus musculus with 4 samples.

Results

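Cycling megakaryocyte progenitors are bone marrow cells that carry transcripts of the platelet lineage together with transcripts of the cell division cycle. They were chosen here from single-cell RNA sequencing by transcript counts alone. Cells entered with 500 or more genes and with no more than 10% of UMIs from mitochondrial genes (UMIs are unique molecular identifiers, each standing for 1 captured RNA molecule). The megakaryocyte gate required at least 3 UMIs of Pf4 (platelet factor 4, a chemokine of platelet alpha granules), at least 1 UMI of Itga2b (integrin αIIb, CD41) and at most 2 UMIs of Car1 (carbonic anhydrase of the erythroid lineage). A cell of the gate counted as cycling if the summed UMIs of 8 genes were 5 or more. These were Mki67, Top2a, Ube2c and Birc5, which are read mainly in G2 and mitosis, and Hist1h1b, Hist1h2ap, Tk1 and Rrm2, which are read mainly in S phase. The rule found 1855 cycling megakaryocyte progenitors among 41122 kept cells and 44151 barcodes. They made up 4.51% of the kept cells.

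The cells came from donor hematopoietic stem and progenitor cells (CD45.2 positive) of C57BL/6 mice, collected from bone marrow 20 weeks after competitive transplantation. The labels give 4 samples, 2 with wild-type and 2 with Srcap heterozygous mutant donor cells, each loaded at 20000 cells. Srcap encodes the ATPase that places the histone variant H2A.Z in chromatin. Both genotypes had therefore passed through transplantation into a recipient and regrowth beside competitor cells, so neither group is unperturbed marrow. The change carried by the Srcap allele, the strain of the competitor cells, the treatment of the recipients and the number of recipients behind a sample are not given in the sources used here. The matrix separates 4 libraries by barcode suffix, but the sources used here do not say which sample a suffix is. Wild type and mutant could not be told apart, so no comparison between genotypes was made, and every value is given for libraries 1 to 4 without a test. Cells of 1 library share its preparation and are not replicates.

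Megakaryocytes arise from stem and progenitor cells under thrombopoietin and under transcription factors such as GATA1, FLI1 and RUNX1. Early progenitors divide. Later cells switch to endomitosis, in which DNA is replicated and mitosis begins but the cell does not split, so that each round raises the ploidy. The split itself depends on a contractile ring driven by the GTPase RhoA. RhoA is switched on at the cell equator by the exchange factor Ect2, which is held there by the centralspindlin proteins Kif23 and Racgap1, and Cep55 acts later in the final cut. Lower levels of Ect2 and of a further exchange factor, Arhgef2 (GEF-H1), have been tied to endomitosis of megakaryocytes. Polyploid cells then fill with granules and shed platelets.

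Promoter windows of the genes on which the description turns are shown first, as the 250 bases before the RefSeq start on GRCm38.p6, read along the gene. Pf4 and Gp9 stand for the platelet program. Capitals there mark AGGAAG or its reverse complement CTTCCT, a core bound by ETS factors such as FLI1. AGATAA and its reverse complement, a core bound by GATA factors, was searched for in the same windows and has no match in these stretches of either gene.
Pf4, chr5:90772185-90772434, plus strand: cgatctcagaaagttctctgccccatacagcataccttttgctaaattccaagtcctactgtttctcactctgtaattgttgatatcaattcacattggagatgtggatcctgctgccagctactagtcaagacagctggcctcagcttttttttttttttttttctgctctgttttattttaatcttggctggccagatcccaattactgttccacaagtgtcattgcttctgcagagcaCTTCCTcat
Gp9, chr6:87777820-87778069, plus strand: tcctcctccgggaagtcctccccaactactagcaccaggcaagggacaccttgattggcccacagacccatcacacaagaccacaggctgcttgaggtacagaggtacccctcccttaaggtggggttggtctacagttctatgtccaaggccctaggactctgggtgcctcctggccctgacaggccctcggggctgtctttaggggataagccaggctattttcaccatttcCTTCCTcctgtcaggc
Ccnb2 (cyclin B2), Kif23 and Ect2 stand for mitosis and for the splitting of the cell, in which the transcripts of Ect2 stood apart from the others. Capitals here mark CCAAT or ATTGG, the box bound by NF-Y, and TTTGAA or TTCAAA, the core of the cell cycle homology region of G2 genes.
Ccnb2, chr9:70421555-70421804, minus strand: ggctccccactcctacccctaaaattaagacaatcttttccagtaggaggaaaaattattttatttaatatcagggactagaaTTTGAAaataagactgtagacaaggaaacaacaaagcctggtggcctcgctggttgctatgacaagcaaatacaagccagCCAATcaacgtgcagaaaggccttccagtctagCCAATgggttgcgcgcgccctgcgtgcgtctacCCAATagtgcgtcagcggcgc
Kif23, chr9:61946800-61947049, minus strand: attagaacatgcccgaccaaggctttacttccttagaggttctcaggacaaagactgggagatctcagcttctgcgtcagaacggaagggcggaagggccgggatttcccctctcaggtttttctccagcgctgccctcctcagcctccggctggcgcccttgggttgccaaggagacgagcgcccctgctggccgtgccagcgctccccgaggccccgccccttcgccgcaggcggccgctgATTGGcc
Ect2, chr3:27153879-27154128, minus strand: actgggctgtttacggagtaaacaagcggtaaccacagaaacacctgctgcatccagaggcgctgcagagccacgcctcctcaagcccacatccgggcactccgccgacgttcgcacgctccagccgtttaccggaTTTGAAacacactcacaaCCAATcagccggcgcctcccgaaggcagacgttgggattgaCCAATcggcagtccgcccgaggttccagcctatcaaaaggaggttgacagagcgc
The Ect2 window overlaps an exon of the noncoding gene 1700125G22Rik, which lies on the other strand at 27154026 to 27154310.

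Both Ccnb2 and Ect2 had TTTGAA once, with CCAAT 3 times in Ccnb2 and 2 times in Ect2, and Kif23 had CCAAT once. Over all 32851 promoter windows of this length, 33.8% held CCAAT on either strand and 15.99% held TTTGAA. The CCAAT box was present in 84.6% of the windows of the G2 and mitotic entry genes (11 of 13 matched) and in 54.5% of those of cytokinesis genes (12 of 22, from 15 genes). It was present in 63.2% of windows of kinetochore genes (12 of 19) and in 60.6% of those of S phase genes (20 of 33). AGGAAG was present in 29.5% of all windows, against 44.4% of platelet receptor and adhesion genes (8 of 18) and 50% of granule protein genes (6 of 12). AGATAA was present in 9.99% of all windows, in 33.3% of those receptor genes (6 of 18) and in 8.33% of granule protein genes (1 of 12). Pf4, a gene of the rule, is in neither list. TTTGAA was present in 38.5% of windows of the G2 genes (5 of 13), 22.7% of those of cytokinesis genes (5 of 22) and 27.8% of those of receptor genes (5 of 18). A match describes the letters in the window and is not a binding site.

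The cells were spread over all libraries. There were 575 cycling megakaryocyte progenitors in library 1, 444 in library 2, 389 in library 3 and 447 in library 4, or 4.63%, 4.43%, 4.03% and 4.95% of the kept cells of each. Of the 2731 cells of the megakaryocyte gate, 67.9% were cycling (95% exact binomial interval 66.1% to 69.7%, counting error only), and the share was 66.3%, 71.7%, 66.6% and 67.6% in libraries 1 to 4. A further 413 cells of the gate had a cycle sum of 0 or 1 and are called resting, and 463 lay between. The median cycling cell had 17448 UMIs, 4278 genes and a cycle sum of 92, and the median resting cell 9763 UMIs and 2949 genes. A sum over 8 genes grows with the UMIs of a cell, so each cell was also thinned to 5000 UMIs. The Pf4, Itga2b and Car1 cuts were applied again to the thinned counts, and this gate held 426, 314, 268 and 348 cells in libraries 1 to 4. Its cycling share was 47.1%, so the cells of the gate changed along with the cycle sum.

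Against cells with no UMI of Pf4 or Itga2b and at most 2 of Car1, the gate held the larger share of cycling cells in every library. As deposited, the cells outside the gate were cycling in 39.99%, 40.9%, 34.4% and 32.2% of cases in libraries 1 to 4, all below the 66.3% to 71.7% of the gate. With the gate applied again to thinned counts, it gave 44.4%, 48.7%, 48.1% and 48.3%, and the cells outside 37.1%, 39.1%, 31.6% and 30.0%. The gap in points was therefore smaller at equal depth, and the gate stayed higher in 4 of 4 libraries. Cells outside the gate are of many lineages, so the share describes that mixture.

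The edges of the gate lay within continuous distributions. The cycle sum was 4 in 112 gate cells, just outside the cycling class, and 5 in 84 cells just inside. Pf4 was at 2 UMIs in 390 cells that met the other criteria and at 3 UMIs in 219. Itga2b was at 0 in 340 such cells and at 1 in 335, so the gate takes part of a range and not a separate population. Car1 hardly entered, with 1 cell at 2 UMIs and 2 cells at 3. The Pf4 threshold was also reached in some cells of another lineage. Among B-lineage cells with at least 3 UMIs of Cd79a, Pf4 had 3 or more UMIs in 2.11%, 1.90%, 1.46% and 1.23% of cells. The whole gate was passed by 7, 4, 7 and 5 of these 569, 369, 548 and 569 cells. Over all cells the gate held 2731 of 41122, so this rate is not negligible beside it. Whether free RNA or doublets gave these counts was not tested.

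**Figure D1:**
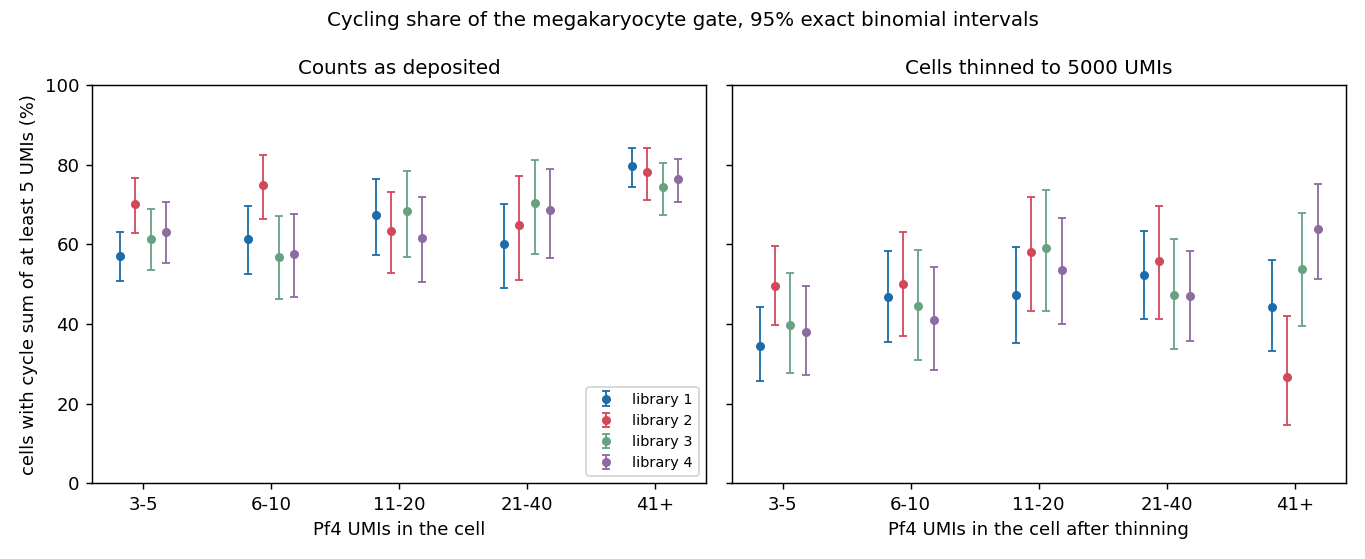
Share of cells of the megakaryocyte gate that were cycling (y axis, percent) by Pf4 UMIs per cell (x axis), for libraries 1 to 4, as deposited and after thinning each cell to 5000 UMIs; bars are 95% exact binomial intervals. As deposited, the bin of 41 or more Pf4 UMIs stands at 79.6% in library 1 and 76.3% in library 4, above the bin of 3 to 5 at 57.0% and 63.2%; after thinning, the top bin ranges from 26.7% in library 2 to 63.8% in library 4.

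Cycling did not stop at high Pf4. As deposited, the cells with 41 or more Pf4 UMIs were cycling in 79.6% of cases in library 1, 78.1% in library 2, 74.3% in library 3 and 76.3% in library 4. The cells with 3 to 5 Pf4 UMIs were cycling in 57.0%, 70.0%, 61.3% and 63.2%. The bins also differed in depth, with a median of 12399 UMIs in the lowest and 17054 in the highest bin of library 1. The lower bins had no common order over the libraries. After thinning the highest bin was no longer the highest in every library: at a cycle sum of 5 or more it was cycling in 44.3%, 26.7%, 53.8% and 63.8% of 79, 45, 52 and 69 cells. A cut of 2 or more on the thinned counts gave 68.4%, 53.3%, 67.3% and 75.4% of the same cells.

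The genes of the rule describe the choice and are no finding. Mki67 was seen in 90.6%, 91.9%, 90.7% and 91.7% of the cycling cells of libraries 1 to 4. The UMIs of the cells of a class were then summed per library and each gene was given as CPM, its count scaled to a total of 1000000 UMIs. Pf4 stood at 3571, 2382, 3120 and 3283 CPM in cycling and at 2130, 3025, 2239 and 2646 CPM in resting cells of the gate, and the ranges overlapped. For Itga2b the levels were 241, 223, 228 and 260 CPM in cycling and 211, 267, 231 and 280 CPM in resting cells, again with overlap. Rab27b, a small GTPase that docks platelet dense granules and a marker that the rule did not use, was seen in 64.7%, 63.1%, 65.0% and 72.3% of the cycling cells. Among cycling cells without Pf4 and Itga2b it was seen in 6.42%, 6.20%, 6.12% and 6.08%. Tubb1, the β1-tubulin of platelets and late megakaryocytes, was seen in 0.348%, 0.901%, 0.257% and 0% of the cycling progenitors, so this late marker was at or near 0. With no cell of 447 in library 4, a floor of 3 cells allows a share of up to 0.671%.

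Markers of other lineages were present. The summed neutrophil markers stood at 297, 556, 525 and 867 CPM in the cycling progenitors and at 4063 to 7259 CPM in the other cycling cells. Resting cells of the gate had 218 to 300 CPM. Summed erythroid markers were at 947, 955, 875 and 1250 CPM, near the resting cells (999 to 1180 CPM), above the other cycling cells (347 to 529 CPM) and below cycling cells with at least 3 Car1 UMIs (2543 to 3525 CPM). High scores for doublets, droplets that may hold more than 1 cell, were more frequent than in resting and other cycling cells. The median score of the progenitors was 0.0627, 0.0609, 0.0692 and 0.0671, against 0.0704, 0.0694, 0.0673 and 0.0690 over all cells of libraries 1 to 4. Cycling cells with at least 3 Car1 UMIs had 13.7%, 19.4%, 7.41% and 16.9% of cells in the top 8%. Of the cycling progenitors, 13.7%, 14.9%, 16.7% and 14.8% had a score in the top 8% of their library, against 1.27% to 8.16% of the resting cells and 8.26% to 10.2% of the other cycling cells. Without these cells, 405 genes were called higher and 135 lower than in resting cells, in the comparison given below, and 375 and 84 of these are among the 401 and 91 called with all cells.

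A gene was called higher or lower when log2(CPM + 1) gave a change of 1.5-fold or more, with 1 sign in all 4 libraries, and its mean over both sides reached 5 CPM. This is a rule of size and no test, and the added 1 CPM understates the change of low genes. A gene can reach the mean of 5 CPM through its higher side alone. Genes low on both sides are left out, so counts of called members follow in part from this filter. Against the resting cells of the gate, 401 of 9672 genes were called higher (4.15%) and 91 lower (0.941%), with a median log2 ratio of 0.02 over all genes. This contrast is the one the rule made, and the counts of cell cycle genes follow from it.

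Outside the 8 genes of the rule, most genes of mitosis were called higher in the cycling cells. The G2 and mitotic entry list gave 19 of 20 (median log2 ratio 3.83), the kinetochore and spindle checkpoint list 17 of 18 (4.15), and the cleavage furrow and cytokinesis list 16 of 18 (3.91). Tpx2, which builds the spindle around chromatin, had 168, 189, 150 and 170 CPM in the cycling cells of libraries 1 to 4 and 3.64, 2.53, 2.78 and 3.44 CPM in the resting cells. Hmmr, a spindle-binding protein, had 142, 176, 146 and 166 CPM in cycling cells, against 2 UMIs in the resting cells of library 1 and 0 in those of libraries 2 to 4. The kinase gene Cdk1, which drives entry into mitosis, stood at 194, 185, 229 and 233 CPM against 25.5, 21.5, 21.3 and 21.5 CPM. All of these levels were separated between the 2 classes in every library. Members not called were Wee1 (0.22), which holds Cdk1 back, Pttg1 (0.16), which encodes securin, and the RhoA pathway genes Rhoa (0.23) and Arhgef2 (0.00).

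Replication and repair genes differed by smaller amounts. Of the S phase genes, 13 of 34 were called higher, with a median of 0.69. Pcna, the sliding clamp of DNA polymerases, had 249, 300, 304 and 279 CPM in cycling and 149, 176, 185 and 172 CPM in resting cells. Histone genes were called in 18 of 22 (3.00), and since the members of these multigene families share sequence, the level of a single copy is uncertain. Homologous recombination and Fanconi genes were called in 14 of 23 (1.25). None of 8 end joining genes was called (−0.08).

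Srcap and the H2A.Z genes bear on the allele of the study, although genotypes could not be compared. Srcap stood at 61.0, 92.4, 55.6 and 55.4 CPM in the cycling cells of libraries 1 to 4 and at 46.6, 78.4, 43.6 and 61.0 CPM in the resting cells, a ratio of 0.29 that was not called. H2afz, which encodes an H2A.Z, stood at 2784, 2702, 3115 and 3044 CPM against 1099, 1128, 1180 and 1108 CPM, separated in every library. With H2afv, the other H2A.Z gene (1.13), and Anp32e, which removes H2A.Z from chromatin (0.92), 3 of the 12 genes of this list were called higher. Against other cycling cells, described below, none of the 12 was called (0.08).

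Genes of the platelet lineage were at similar levels in cycling and resting cells. Both classes had to pass the same cuts on Pf4 and Itga2b, so levels near each other follow in part from the rule. None of 11 granule protein genes (median −0.17), 17 receptor and adhesion genes (−0.06), 15 cytoskeleton and granule transport genes (0.09), 15 platelet signalling genes (0.04) and 23 transcription factor genes (−0.21) was called in either direction. Itgb3, the partner of Itga2b in the fibrinogen receptor, had 27.7, 30.2, 27.4 and 42.2 CPM in cycling and 19.7, 45.5, 26.0 and 36.9 CPM in resting cells. Gp9, of the receptor for von Willebrand factor, had 65.5, 61.3, 74.7 and 67.3 CPM against 70.0, 92.4, 71.4 and 85.9 CPM. The ranges of both genes overlapped between the classes. Gata1 (0.27), Fli1 (0.14), Nfe2 (−0.37) and Gata2 (−0.36) were likewise not called.

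Stem cell genes were lower in the cycling than in the resting cells of the gate. Of 18 measured, 7 were called lower and none higher, with a median of −0.66. Procr (the protein C receptor EPCR of stem cells) stood at 5.07, 8.31, 7.76 and 7.53 CPM in cycling and at 29.9, 32.9, 26.0 and 12.9 CPM in resting cells. Ly6a (Sca-1) stood at 21.9, 29.0, 23.9 and 22.4 CPM against 74.3, 78.4, 53.8 and 48.1 CPM. The classes did not overlap for either gene. The order was not the same at higher Pf4. Among cells with at least 10 Pf4 UMIs the ratio was −0.15 for Procr and 0.0162 for Ly6a. Among cells with at least 41 Pf4 UMIs, a cut added after the data were seen that left 673 cycling and 69 resting cells (13 to 21 a library), the ratio was 2.25 for Procr and 0.95 for Ly6a, of the opposite sign to the whole gate and from few resting cells. The remaining genes called lower were Sult1a1 (−1.60), Mllt3 (−0.93), Nkx2-3 (−0.81), Txnip (−0.76), which restrains glucose uptake, and Mycn (−0.71). The list went the other way in the comparisons described below. Against other cycling cells 8 of 16 were higher and 3 lower (0.90), beside 5.61% and 5.81% of all genes. Against cycling erythroid cells 12 of 15 were higher (2.20), beside 9.95% of all genes.

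Among other genes, the immediate early list had 4 of 10 members lower (−0.69), with Egr1, a stimulus-induced transcription factor, at 8.26, 11.1, 9.44 and 12.3 CPM in cycling and 21.1, 32.9, 16.7 and 52.4 CPM in resting cells. Ccnd2 (cyclin D2, which drives G1) was lower as well, at 250, 298, 299 and 292 CPM against 419, 462, 451 and 442 CPM, with no overlap. The other called members of the G1 list were higher, namely E2f2 (2.56), E2f7 (2.07), Ccne2 (1.29) and Cdkn2d (0.88). Ifitm1, an interferon-induced membrane protein, stood at 155, 155, 173 and 179 CPM against 372, 258, 389 and 320 CPM. Oxidative phosphorylation (22 genes, 0.30), glycolysis (14, 0.05), sterol synthesis (16, −0.17) and ribosome biogenesis (16, 0.01) had no called member.

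Of the neutrophil markers, 4 of 7 were called higher in the cycling cells. Elane (neutrophil elastase) stood at 14.8, 129, 94.1 and 245 CPM in the cycling cells of libraries 1 to 4 and at 5.83, 10.1, 7.42 and 2.58 CPM in the resting cells. Elane was seen in 7.65%, 6.76%, 9.51% and 10.1% of cycling and 5.84%, 7.59%, 6.12% and 3.03% of resting cells, so the level was carried by few cells. Without the cells of high doublet score the median ratio of Elane was 0.09, in place of 3.52, and neither Elane nor Mpo was called. The median of the neutrophil list was then 0.35, in place of 1.65.

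**Figure D2:**
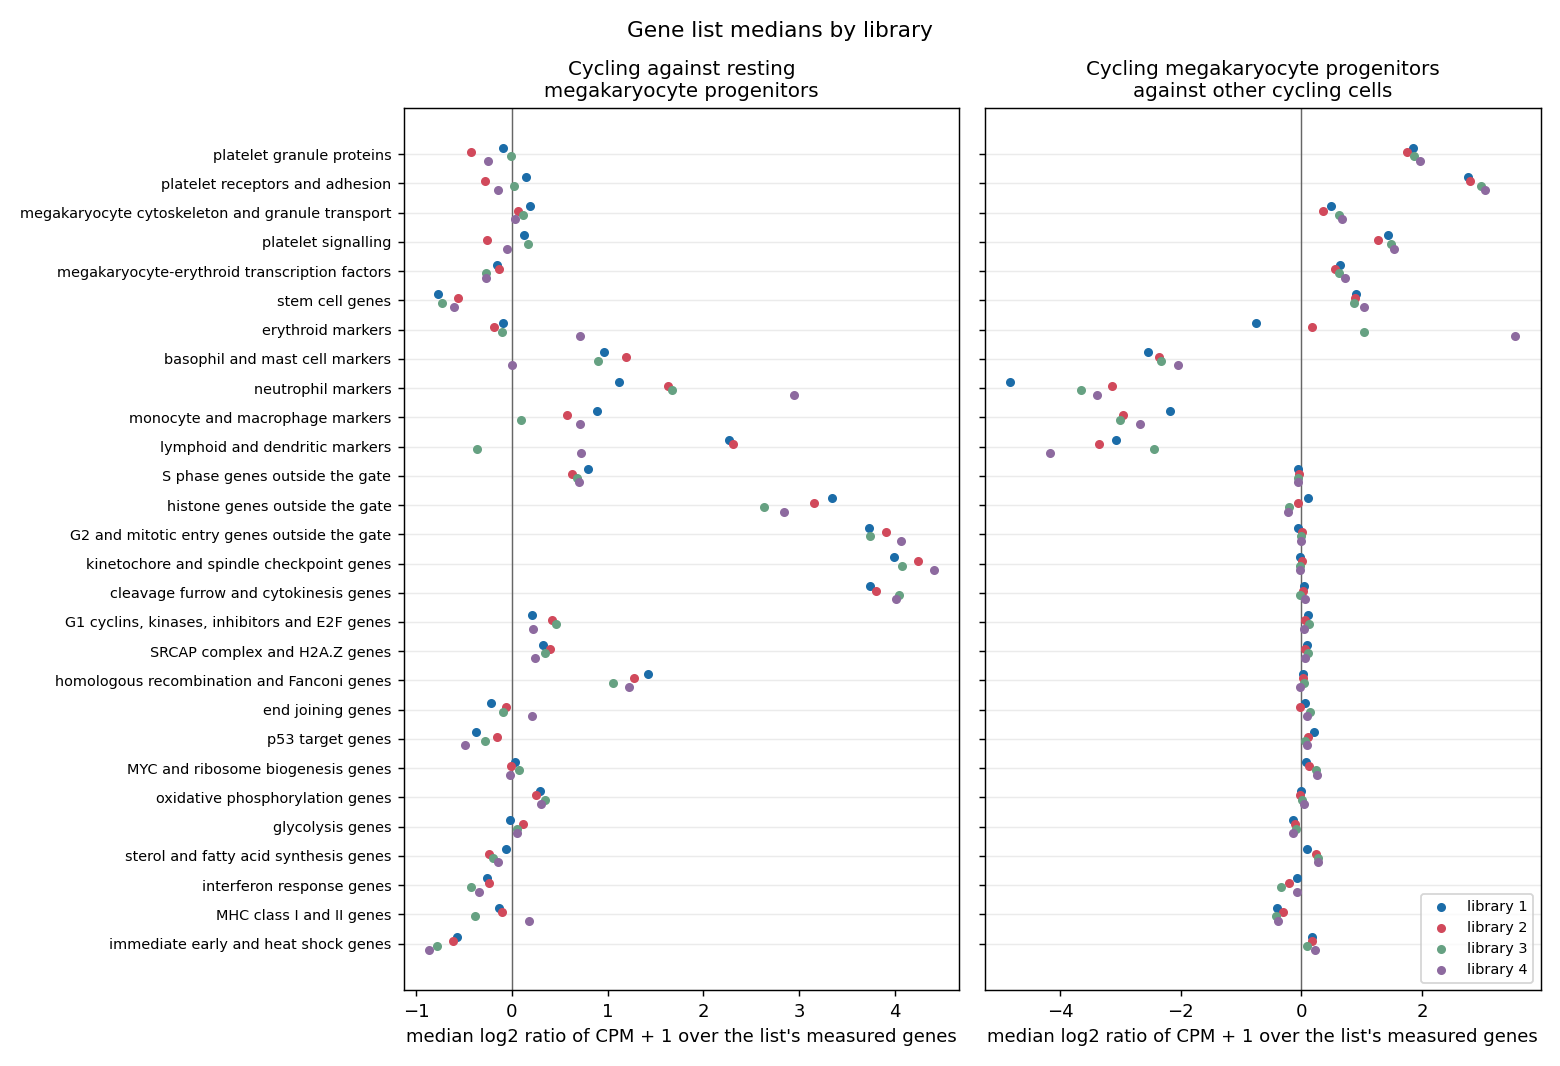
Median log2 ratio (x axis, log2 of CPM + 1) of each gene list (y axis) for cycling megakaryocyte progenitors against resting cells of the gate and against other cycling cells, with a point for each of the 4 libraries. Mitosis lists lie between 3.73 and 4.41 in the first contrast and near 0 in the second. The platelet receptor list lies between −0.28 and 0.15 in the first and between 2.75 and 3.05 in the second.

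The second comparison set the cycling progenitors beside 9248 other cycling cells, which met the same cycle sum but had no UMI of Pf4 or Itga2b. There 538 of 9597 genes were called higher (5.61%) and 558 lower (5.81%), and the median over all genes was 0.08. Pf4 and Itga2b made this contrast, so the platelet genes that vary with them are given as a description.

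Genes of the platelet surface led. Of the 22 genes of the receptor and adhesion list, 16 were measured, and 15 of these were higher (median 2.88). Genes such as Gp5 and Treml1, given next, reached 5 CPM through the progenitors, so the count follows in part from the filter. Gp5 of the von Willebrand factor receptor stood at 77.4, 59.9, 75.4 and 67.8 CPM against 2.09, 1.55, 1.71 and 1.58 CPM. Treml1, a receptor stored in alpha granules, stood at 55.1, 34.9, 56.0 and 58.1 CPM against 0.673, 0.330, 0.587 and 0.806 CPM. Both were separated in each library by a wide margin.

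Cargo and signalling genes were higher too. The granule list gave 9 of 10 measured genes, of 14 listed (1.86). Vwf, the carrier of factor VIII, stood at 71.9, 69.1, 81.5 and 122 CPM against 1.57, 2.00, 2.57 and 4.83 CPM. The signalling list gave 10 of 15 (1.46), and the cytoskeleton and transport list 6 of 15 (0.56). Rab27b stood at 110, 97.6, 97.0 and 107 CPM here (4.27). Cavin2, a coat protein of caveolae, was higher by 5.66, at 215, 217, 199 and 250 CPM against 2.96, 2.66, 3.27 and 5.32 CPM. Tpm4, a tropomyosin of the platelet cytoskeleton, was called lower (−0.86), at 32.1, 26.8, 29.6 and 25.9 CPM against 51.1, 57.0, 51.7 and 50.2 CPM.

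Of 21 transcription factor genes, 9 were higher, with a median of 0.63. Gata1 stood at 44.4, 41.6, 40.2 and 38.8 CPM against 1.52, 0.836, 1.09 and 1.13 CPM. Others called higher were Gfi1b (2.495), Zfpm1 (2.44), Gata2 (2.20), Fli1 (1.61), Tal1 (1.51), Meis1 (1.25) and Mef2c (1.04). Nfe2 (0.70), which platelet release requires, and Runx1 (0.59) did not pass the rule in every library. Neutrophil markers were lower in 10 of 10 genes (−3.52) and lymphoid and dendritic markers in 9 of 11 (−3.21), and the other cycling cells include cells of these lineages.

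Cell cycle genes, in contrast, were at matched levels. None of 34 S phase genes (median −0.05), 23 histone genes (−0.13), 18 kinetochore genes (−0.02) and 25 recombination and Fanconi genes (0.03) was called. Both sides had to reach the same cycle sum, so levels near each other follow in part from the rule. Rrm2, an S phase gene of the rule and a subunit of ribonucleotide reductase, was lower at 51.3, 49.5, 57.7 and 54.8 CPM against 90.3, 85.6, 109 and 111 CPM. After thinning, 50.2%, 48.1%, 47.0% and 51.8% of the cycling progenitors had more UMIs of 50 G2 and mitosis genes than of 34 S phase genes. The other cycling cells gave 47.2%, 48.3%, 48.4% and 50.8%. In the G1 list 1 of 20 genes was called higher and 2 lower, beside 5.61% and 5.81% of all genes, so the counts say nothing of the list. Cdkn1a (the inhibitor p21) was lower, at 7.26, 5.38, 11.4 and 9.25 CPM against 25.5, 20.5, 29.3 and 25.7 CPM. E2f2 was lower (−0.79) and Cdkn2d (the inhibitor p19) higher (0.73).

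Ect2 was the 1 of 18 cleavage furrow and cytokinesis genes that was called lower, in a list with a median of 0.03. A count of 1 in 18 is near the 5.81% of all genes called lower, so it says nothing of the list, and Ect2 is described for its own values, which were seen before it was singled out. The gene (ENSMUSG00000027699, chr3:27097222-27153878, minus strand) had 186, 249, 125 and 109 UMIs in the cycling progenitors of libraries 1 to 4. That equals 18.5 CPM in library 1 (95% exact Poisson interval 15.9 to 21.4), 30.4 in library 2 (26.8 to 34.5), 16.2 in library 3 (13.46 to 19.3) and 11.7 in library 4 (9.63 to 14.1). In the other cycling cells it stood at 50.4, 61.8, 46.4 and 52.2 CPM, above every upper bound of the progenitors. The log2 ratio was −1.40, −0.998, −1.46 and −2.06, with a median of −1.43. Intervals cover counting error only.

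The share of cells with Ect2 told the same order. A UMI of Ect2 was seen in 20.2%, 29.7%, 19.5% and 15.9% of the cycling progenitors and in 43.6%, 49.2%, 45.6% and 48.8% of the other cycling cells. The median cell had 17448 UMIs in the progenitors and 15237.5 in the others. The other cycling cells were also divided by their markers. Ect2 stood at 34.6 to 46.7 CPM over the libraries in those with at least 20 neutrophil marker UMIs. Those with lymphoid and dendritic markers had 53.2 to 68.6 CPM, and those with at least 2 UMIs of Procr, Mecom, Hlf and Ly6a had 53.9 to 66.1 CPM. The remaining cells, 41 to 87 in a library, had 22.5 to 39.9 CPM. In each library the progenitors were below each of these 4 kinds of cells.

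The partners of Ect2 did not share this difference in size. Kif23 stood at 79.2, 102, 79.5 and 77.6 CPM against 114, 141, 114 and 125 CPM (−0.52), and Cep55 at 30.2, 41.8, 30.3 and 31.8 CPM against 48.0, 58.4, 44.0 and 51.0 CPM (−0.59). Both were lower in each library, and neither passed 1.5-fold in all of them. Prc1, which bundles the midzone of the spindle, stood at 260, 306, 226 and 258 CPM against 230, 263, 205 and 238 CPM (0.16). Rhoa itself stood at 320, 315, 331 and 314 CPM against 311, 308, 333 and 330 CPM (0.01). Arhgef2 was at 107, 135, 99.3 and 93.7 CPM, higher in each library than the 74.7, 96.4, 71.0 and 74.0 CPM of the other cycling cells but not called (0.48).

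A spindle gene was higher. Ckap2l, which encodes a protein of the mitotic spindle, stood at 144, 148, 129 and 151 CPM against 72.5, 87.8, 73.7 and 80.9 CPM in the other cycling cells (0.85). It was the 1 gene of 20 in the G2 list that was called, in a list with a median of 0.00, and 1 in 20 is near the 5.61% of all genes.

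Cycling erythroid cells offered a second control, with at least 3 Car1 UMIs and no Pf4, although there were 258 of them. Of 9304 genes, 926 were higher in the megakaryocyte progenitors (9.95%) and 349 lower (3.75%). Of 14 granule genes 10 were measured, and 10 were higher (3.46). Of 22 receptor genes 16 were measured, and 14 were higher (3.16). These counts too follow in part from the filter, which a gene can pass through the progenitors alone. The transcription factors parted, with 9 of 23 higher and 4 lower. Fli1 stood at 206, 237, 223 and 222 CPM against 36.5, 32.5, 19.1 and 27.3 CPM, and Klf1, the erythroid factor that opposes it, at 7.36, 7.09, 5.82 and 5.59 CPM against 138, 146, 173 and 187 CPM. Gata1 was lower by 1.42 on the log2 scale, and Ldb1 (−0.99) and Myb (−1.19) were lower too.

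Against erythroid cells the S phase list had a median of 0.06 and the cytokinesis list one of 0.45. In the G1 list, 5 of 20 genes were higher, among them the D cyclins Ccnd1 (1.39), Ccnd3 (0.92) and Ccnd2 (0.74), and Ccne1 (cyclin E1) was lower at 8.16, 9.05, 8.15 and 12.48 CPM against 21.7, 39.7, 50.7 and 39.0 CPM. Glycolysis genes were higher in 4 of 13, with Pkm (pyruvate kinase) at 240, 271, 247 and 252 CPM against 81.4, 49.96, 29.1 and 48.8 CPM. Ect2 was at 44.9, 38.5, 19.1 and 27.3 CPM in the erythroid cells, above the progenitors of each library, and was not called (−0.74), with 23 to 64 UMIs behind each erythroid value. Ckap2l was again higher (1.31).

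**Figure D3:**
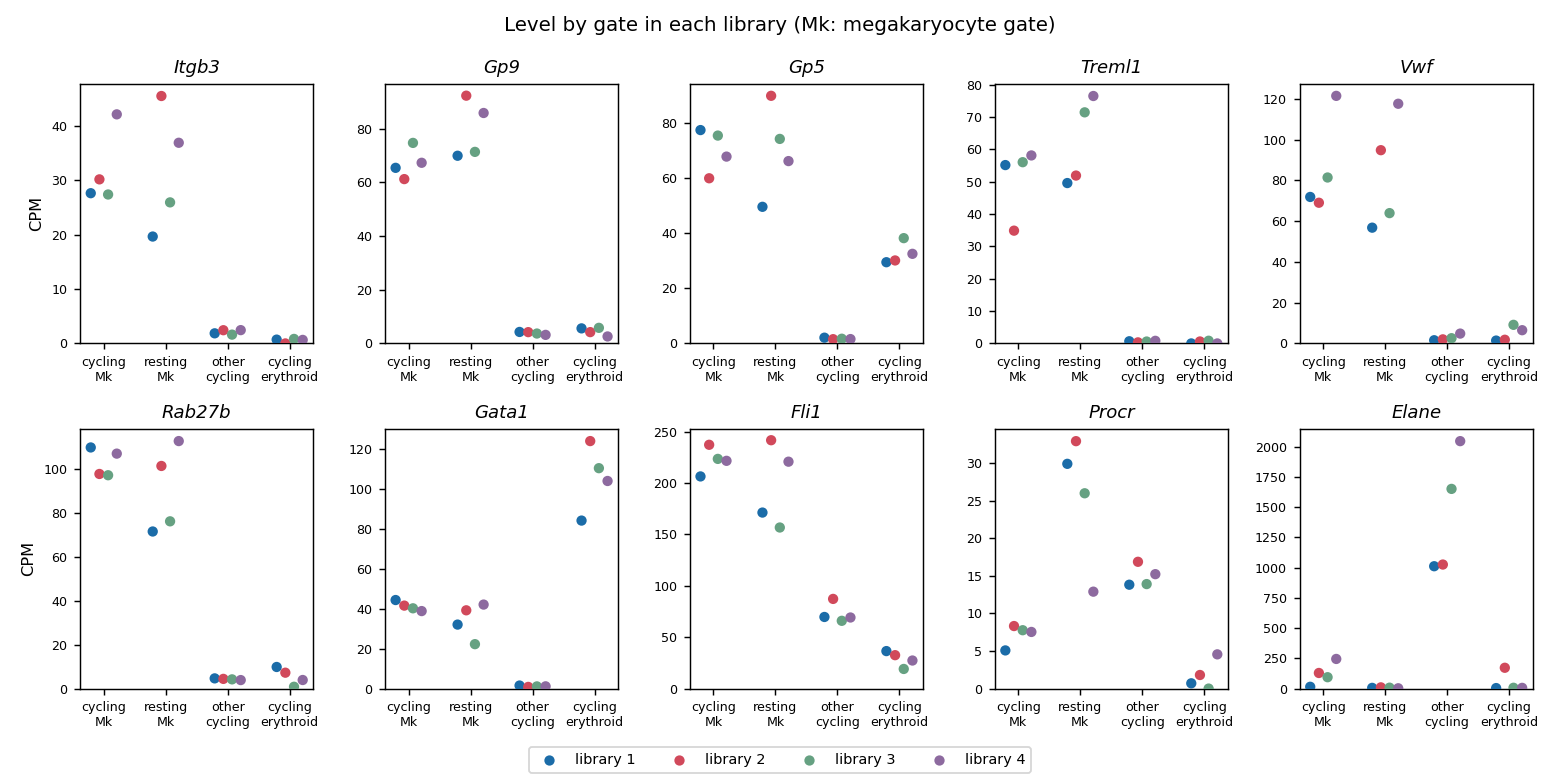
Level (y axis, CPM of summed UMIs) of 10 genes in cycling progenitors, resting cells of the gate, other cycling cells and cycling erythroid cells, with a point for each of the 4 libraries. Itgb3, Gp9, Treml1, Vwf, Rab27b and Fli1 stand higher in both classes of the gate than in the other cells, Gp5 is intermediate in the erythroid cells, Gata1 is highest in the erythroid cells, and Procr is highest in the resting cells of libraries 1, 2 and 3 but not 4.

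Within the cycling progenitors, cells were ordered in each library by the Pf4 share of their UMIs and cut into 3 groups of equal size. This cut was added after the data were seen. The median Pf4 count was 4 UMIs in the low group of every library, 17, 11.5, 18 and 25 in the middle group and 130, 89, 116 and 151 in the high group. Between the high and the low group, 177 of 9541 genes were higher (1.86%) and 392 lower (4.11%), with a median of −0.04. High doublet scores and other markers moved with the groups. The top 8% of scores held 20.3%, 18.9%, 27.7% and 17.4% of the low group and 6.28%, 9.46%, 6.98% and 8.72% of the high group. Without these cells, 178 genes were higher and 376 lower, and 155 and 302 of these are among those called with all cells.

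Platelet genes were higher in the high than in the low group. Pf4 set the order, so the platelet genes that vary with it are given as a description. Receptor genes were higher in 11 of 17 (median 1.16), granule genes in 6 of 11 (1.36) and signalling genes in 8 of 15 (0.75). Serpine2, a protease inhibitor on the granule list, had 138, 91.1, 103 and 99.1 CPM in the high group and 5.16, 2.01, 3.39 and 7.26 CPM in the low group. Rab27b had 199, 180, 187 and 174 CPM against 40.4, 29.8, 29.8 and 46.7 CPM. Vwf stood at 140, 145, 153 and 176 CPM against 15.5, 18.4, 25.6 and 58.4 CPM. Tpm4, which was lower than in other cycling cells over the whole class, was higher in the high group, at 52.5, 45.4, 46.3 and 45.6 CPM against 16.1, 14.7, 16.6 and 11.7 CPM.

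Transcription factors split, with 4 of 23 higher and 3 lower. Fli1 (1.07), Mef2c (0.89) and Gfi1b (0.72) were among those higher in the high group, and Hhex (−0.92), Lyl1 (−0.89) and Myb (−0.75) were lower. Gata1 stood at 41.7, 42.2, 37.1 and 42.9 CPM against 49.2, 37.9, 34.3 and 38.0 CPM, and the groups overlapped. Of 16 stem cell genes, 5 were lower with high Pf4 and 1 higher (Ctnnal1, 1.02), with a list median of −0.07. Ly6a had 5.95, 15.5, 5.93 and 8.82 CPM in the high and 37.3, 43.9, 47.5 and 40.1 CPM in the low group. Hlf, a stem cell transcription factor, had 58.5, 84.4, 53.4 and 63.5 CPM against 142, 213, 170 and 137 CPM. Vim (vimentin) had 57.9, 53.5, 48.6 and 33.5 CPM against 284, 302, 293 and 211 CPM, with no overlap. Cpa3, a mast cell protease, had 3.52, 2.81, 3.71 and 4.12 CPM against 67.4, 39.5, 49.3 and 22.5 CPM.

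The cell cycle lists had few called members between the Pf4 groups. None of 34 S phase genes (−0.18) and 18 kinetochore genes (−0.26) was called, and in the G2 list Ckap2l alone was higher (0.96), at 204, 199, 186 and 199 CPM against 110, 110, 80.2 and 96.4 CPM. Among G1 genes Ccnd1 (cyclin D1) was higher (0.82), at 96.9, 117, 95.3 and 95.8 CPM against 46.4, 69.7, 50.5 and 59.1 CPM.

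In the cytokinesis list 3 of 18 genes were lower in the high group, Ect2 (−2.69), Cep55 (−1.25) and Kif23 (−0.69), beside 4.11% of all genes, and the list median was −0.28. Ect2 stood at 33.4, 51.2, 32.0 and 21.8 CPM in the low, 19.6, 28.5, 12.2 and 12.7 CPM in the middle and 4.33, 10.2, 4.08 and 2.35 CPM in the high group of libraries 1 to 4. The order low, middle, high held in every library. The high group rested on 16, 29, 11 and 8 UMIs, with 95% exact Poisson intervals of 2.48 to 7.03, 6.83 to 14.6, 2.04 to 7.30 and 1.02 to 4.63 CPM. All of these lie below the low group of the same library. Without the cells of high doublet score, the high group stood at 2.98, 7.09, 4.04 and 1.66 CPM and the low group at 33.3, 49.2, 30.2 and 24.2 CPM.

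Ect2 is read mainly in G2 and mitosis, so the groups were also compared among cells with more UMIs of 35 reference mitosis genes than of 34 S phase genes. Genes of the cytokinesis list were not among the 35. The high group then held 71, 60, 49 and 70 cells and stood at 5.06, 12.2, 5.59 and 4.84 CPM of Ect2, from 7, 15, 6 and 8 UMIs. The low group stood at 55.3, 79.4, 56.8 and 35.8 CPM and the other cycling cells at 86.8, 107, 76.5 and 85.1 CPM. Per 1000 UMIs of the 35 reference genes, Ect2 had 0.755 to 1.79 UMIs in the high group over the libraries, 2.79 to 5.89 in the middle group, and 5.09 to 10.7 in the low group. Other cycling cells had 11.9 to 15.1 and cycling erythroid cells 6.17 to 12.1. The high and middle groups were below the erythroid cells in each library.

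In the same cells Cep55 stood at 32.6, 41.4, 36.3 and 32.0 CPM in the high group, 67.3, 81.6, 71.5 and 63.9 CPM in the low group and 80.2, 97.5, 70.6 and 80.3 CPM in other cycling cells. Kif23 stood at 127, 166, 121 and 112 CPM in the high group, 148, 229, 172 and 161 CPM in the low group and 196, 242, 192 and 206 CPM in other cycling cells. Both were lowest in the high group in every library, by less than Ect2. Racgap1, Prc1 and Anln overlapped between these groups. Racgap1 had 118, 148, 102 and 123 CPM in the high group and 110, 133, 115 and 122 CPM in other cycling cells. Prc1 had 378, 508, 394 and 368 CPM against 412, 468, 358 and 405 CPM. Anln (anillin, the scaffold of the contractile ring) had 68.0, 106, 62.4 and 75.6 CPM against 58.9, 84.2, 58.3 and 73.7 CPM. Arhgef2 had 122, 142, 103 and 79.8 CPM against 81.2, 108, 80.01 and 84.4 CPM, and was lower in library 4 alone.

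**Figure D4:**
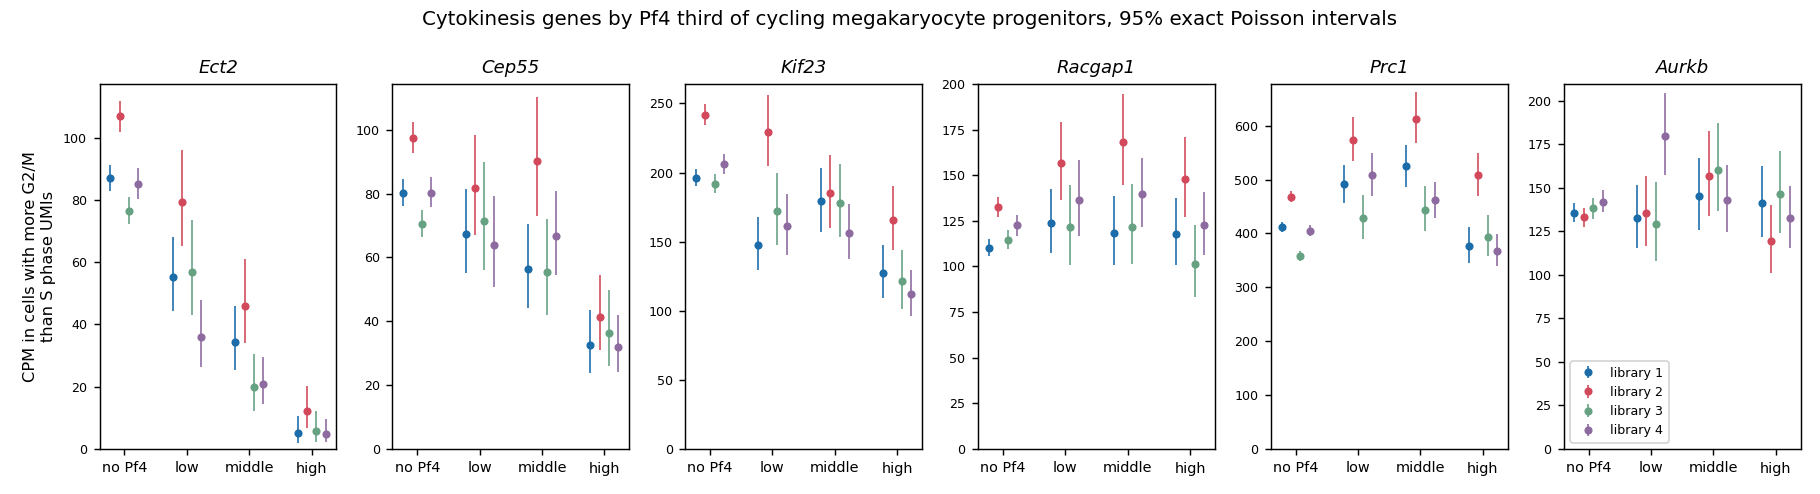
Level (y axis, CPM) of Ect2, Cep55, Kif23, Racgap1, Prc1 and Aurkb in cells with more UMIs of mitosis than of S phase genes, for other cycling cells and for the low, middle and high Pf4 groups (x axis) in libraries 1 to 4; bars are 95% exact Poisson intervals. Ect2 declines from 76.5 to 107 CPM in other cycling cells to 4.84 to 12.2 CPM in the high group, Cep55 and Kif23 decline less, and Racgap1, Prc1 and Aurkb show no such order.

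The Ect2 difference kept its sign under every alternative that was run. Its log2 ratio against other cycling cells ranged from −2.96 to −1.26 over 15 alternatives, and between the high and low Pf4 groups from −3.04 to −1.13. Between those groups Ect2 was not called in all 4 libraries after thinning (−2.18) or among cells with at least 41 Pf4 UMIs (−1.13). Against cycling erythroid cells it ranged from −2.26 to −0.33. A small noncoding gene, ENSMUSG00000087742, lies within Ect2 on the other strand at 27108982 to 27109095. How the counting treated reads shared by overlapping genes is not given in the sources used here. RNA levels do not give ploidy, and whether these cells went on to divide or to endomitosis was not measured.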

How the data were processed

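For 4 droplet libraries (10x 3' chemistry) the authors deposited UMI counts, as whole numbers, in 1 matrix of 32285 genes and 44151 barcodes. Per the file headers the software was Cell Ranger 6.1.2. The genome build was mm10 by the submitters' processing notes. No file used here ties a barcode suffix to a sample, so the planned comparison of genotypes was not run and no p-value is given. Cells were selected by the thresholds in the text. UMIs of all cells of a class were summed per library, with 7732615 to 10052868 UMIs for the cycling progenitors, and each count was scaled to a total of 1000000 (CPM). Ratios are of log2(CPM + 1), and the value for a gene or list is the median over 4 libraries.

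The members, 28 gene lists (495 of 496 members found in the matrix) and thresholds were chosen with earlier results of these data known. The genes named were the rule's own genes and markers, the 12 highest and 12 lowest genes of a contrast at 50 CPM or more, and up to 5 members at either end of each list. Genes singled out beyond these (Arhgef2, Rhoa, Anln, Racgap1, Wee1, Nfe2 and Runx1, and the promoters printed) were chosen after their values were seen. Scrublet, run in Scanpy 1.11.5 at an expected rate of 8%, marked 0, 0, 1 and 0 cells, so doublets were not removed, and an alternative left out the top 8% of scores. The libraries shared 209 barcode sequences (420 barcodes, 12 of them cycling progenitors), which were kept. Cells were thinned to 5000 UMIs with seed 1. Intervals are exact, at 95%, and cover counting error only. Python 3.11.15, NumPy 2.4.6, SciPy 1.17.1 and pandas 2.3.3 were used, and 32158 of 32285 gene IDs matched GENCODE M21. The summing and calling steps were tested on simulated data. Some members of the lists are counted but not reported here by name.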

Additional observations from a re-analysis of the deposited data

How the results depend on the processing

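No paired analysis was possible because barcode suffixes are not tied to samples or replicate numbers. The cycling share of the gate, 67.9% as reported, was 56.8% at a cycle sum of 10 or more, 72.0% at 10 or more Pf4 UMIs, 47.1% after thinning, 65.6% without the top 8% of doublet scores and 77.3% at 41 or more Pf4 UMIs. The cut at 41 was added after the data were seen. Against resting cells, 91 genes were lower as reported, 39 with a pseudocount of 5 CPM (all among the 91), 21 at 10 or more Pf4 UMIs (15 among the 91), 30 at 41 or more (2 among the 91) and 73 after thinning (21 among the 91). A filter at 20 CPM gave 254 higher and 35 lower. Leaving out 1 library gave 127 to 162 lower, with 162 without library 2 and 156 without library 4. Against other cycling cells, the filter at 20 CPM gave 260 higher and 249 lower, and no filter 888 lower. Against erythroid cells, the same filter gave 418 and 221, and no filter 1563 higher. Between Pf4 groups, the pseudocount of 5 gave 260 lower, the filter at 20 CPM 105 higher and 175 lower, 10 or more Pf4 UMIs 113 and 256, thinning 79 and 138, and 41 or more Pf4 UMIs 57 and 167. Filters test other numbers of genes, and leaving out 1 library makes the call easier, since fewer libraries have to pass. The cause of the other changes was not tested. The basophil and mast cell list against other cycling cells had a median of −2.34 over 3 measured genes of 10 with the filter at 5 CPM. Its median was 0.18 with the 20 CPM filter and 0.0597 with no filter. Against resting cells, Ly6a turned to 0.0162 and Sult1a1 to 0.40 at 10 or more Pf4 UMIs, and at 41 or more Procr turned to 2.25, Sult1a1 to 1.18, Ly6a to 0.95, Shisa5 to 0.44, Mllt3 to 0.11 and Glul to 0.0231. Of the other list medians, counted once for each contrast and alternative, 703 were within the spread of the libraries and 162 moved beyond it. Single genes were counted in the same way, so 1 gene gives many values. Of these values, 3701 were unchanged, either called or not called in both settings, 143 lost a call and 39 gained one. Depth limits Ect2 in the high Pf4 group, with 8 to 29 UMIs a library, and the resting cells, with 79 to 137 cells a library.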

Other observations

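Cells of the gate with a cycle sum of 2 to 4, which belong to neither class, had S phase transcripts near the level of the cycling cells and few of mitosis. The cycle sum includes Mki67, Top2a, Ube2c and Birc5, so the low level of mitosis genes follows in part from the rule. After thinning, 96.1%, 98.9%, 96.9% and 95.7% of them in libraries 1 to 4 had more UMIs of 34 S phase genes than of 50 G2 and mitosis genes, and 90.6% to 94.8% of the resting cells did so too. The S phase genes summed to 3544, 3898, 3755 and 3356 CPM in these cells, against 4070, 4424, 4183 and 4022 CPM in the cycling progenitors and 2394, 2876, 2669 and 2454 CPM in the resting cells of the gate. The G2 and mitosis genes summed to 526, 536, 559 and 507 CPM, against 5263, 5990, 5215 and 5618 CPM in the cycling and 424, 423, 402 and 359 CPM in the resting cells. Rab27b was seen in 52.9%, 59.4%, 55.7% and 62.6% of these cells in libraries 1 to 4.

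Some genes of antigen presentation and interferon response were lower than in other cycling cells, where 5.81% of all genes were called lower. Of 15 MHC genes, 5 were lower in the cycling megakaryocyte progenitors, led by Cd74 (−2.00), the invariant chain, and H2-Aa (−1.50), and the list median was −0.39. Of 17 interferon response genes, 3 were lower and 14 were not called, with Ifi27l2a the lowest at −2.11, and the list median was −0.14. Class II genes are also read by the lymphoid and dendritic cells among the other cycling cells, and their part in the difference was not tested.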
